A study of Mus musculus with 3 samples.

Results

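The genes described here make cholesterol and fatty acids, sense and control that synthesis, or export sterol from the cell. They were taken from the count table by gene symbol alone, from a list chosen with earlier results of these data known. Of 35 listed symbols, 34 were found among the 44788 rows of the table. The exception was Msmo1, the sterol methyl oxidase, whose older symbol in the RefSeq gene table, Sc4mol, had a row of its own. That row is described separately and enters no count of the 34 genes.

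The libraries came from spleen T lymphocytes of female BALB/c mice, aged 6 to 8 weeks, that were isolated with beads against the T cell surface protein CD90.2. The cells were held in RPMI medium with 2% serum and treated for 10 h with LZ-8, a protein from the medicinal mushroom Ganoderma lucidum that acts on immune cells. The 3 libraries form 1 group of treated cells, so every value is a level after treatment, and the response to LZ-8 itself cannot be read from them. The labels give no dose and do not tie the replicates to different animals or cultures, and the spread between libraries may therefore be technical.

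The libraries held 13239482, 15007652 and 15683820 counts in replicates 1, 2 and 3. The share of counts on an 18S ribosomal RNA row (Rn18s-rs5) fell from 5.83% in replicate 1 to 2.37% in replicate 2 and 0.992% in replicate 3. The isolated cells carried the T cell markers throughout, all 21 of 21 reaching 10 CPM and 20 reaching 100 CPM, where CPM is the count divided by the scaled library size and multiplied by 1e6. Of 12 macrophage and monocyte markers 10 were below 1 CPM, and the defining receptor gene Csf1r had no count in any library. All 8 markers of fat and liver cells, tissues known for lipid synthesis, were below 1 CPM. In B cell markers, 2 of 10 were below 1 CPM and Ighm, the most abundant, was at 72.4 ± 4.77 CPM (mean ± SD over 3 libraries here and below).

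Cholesterol is built from acetyl-CoA through mevalonate, isoprenoid diphosphates, squalene and lanosterol. Fatty acids are built from the same acetyl-CoA through malonyl-CoA and are then desaturated and elongated. The transcription factors of the SREBP family turn on both routes when membrane sterol is low: the escort protein Scap carries them from the endoplasmic reticulum to the Golgi for cleavage, and the Insig proteins hold them back when sterol is plentiful. When sterol is in excess, LXR nuclear receptors turn on the exporters Abca1 and Abcg1. Lymphocytes that leave quiescence need both routes to build membrane, and SREBP activity is known to be required for that growth in mouse T cells.

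SREBP factors bind sterol regulatory elements, usually beside a site for the factor NF-Y. The promoters below come from 4 genes, 1 each from the mevalonate, sterol, control and fatty acid groups. Hmgcs1 was taken because it alone, of 27 genes with a promoter window, matched the sterol regulatory element letters TCACNCCAC exactly. The others were taken to show their NF-Y sites. The 4 promoters are shown with the 1 match to TCACNCCAC and the matches to the NF-Y site CCAAT in capitals, on either strand. They run along the gene from the RefSeq promoter table (GRCm38.p6), end at the last base before the annotated start or before the first base that a GENCODE transcript covers, and were chosen after the motif matches were known.
Hmgcs1: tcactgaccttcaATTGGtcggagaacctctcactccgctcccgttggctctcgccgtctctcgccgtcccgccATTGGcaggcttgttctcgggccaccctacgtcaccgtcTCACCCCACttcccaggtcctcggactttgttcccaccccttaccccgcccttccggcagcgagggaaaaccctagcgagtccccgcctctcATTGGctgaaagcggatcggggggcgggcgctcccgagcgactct
Nsdhl: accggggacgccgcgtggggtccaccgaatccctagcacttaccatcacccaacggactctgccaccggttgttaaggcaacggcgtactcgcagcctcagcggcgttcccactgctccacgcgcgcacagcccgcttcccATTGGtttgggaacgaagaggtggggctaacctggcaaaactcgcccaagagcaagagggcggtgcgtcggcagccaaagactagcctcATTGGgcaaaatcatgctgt
Srebf2: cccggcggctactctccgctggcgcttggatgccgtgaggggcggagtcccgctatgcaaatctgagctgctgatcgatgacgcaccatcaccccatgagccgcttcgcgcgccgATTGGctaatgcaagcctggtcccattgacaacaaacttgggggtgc
Fasn: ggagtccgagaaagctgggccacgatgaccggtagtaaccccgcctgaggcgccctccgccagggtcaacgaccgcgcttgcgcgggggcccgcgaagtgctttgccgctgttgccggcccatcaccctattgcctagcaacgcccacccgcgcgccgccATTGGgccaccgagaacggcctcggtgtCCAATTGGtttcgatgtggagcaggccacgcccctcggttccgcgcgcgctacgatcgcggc
The stretches lie at chr13:119690101-119690350 on the plus strand (Hmgcs1), chrX:72918271-72918520 on the plus strand (Nsdhl), chr15:82147019-82147180 on the plus strand (Srebf2) and chr11:120824548-120824797 on the minus strand (Fasn).

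Promoter windows, which run from 250 bases before the start to 50 after it, were found for 27 of the 34 genes. Fdps, Fdft1, Sqle, Scd1, Scd2, Fads1 and Abcg1 had no window, and their promoters were not searched. Acat2 and 21 others held the Sp1 site GGGCGG, 22 of 27 in all or 81.5%, beside 38.2% of all 27025 genes with a window and 68.6% of the 8910 of them that were tested for differences between libraries. The NF-Y site CCAAT was in 21 of 27, or 77.8%, beside 41.1% of all genes and 43.0% of tested genes with a window. The E-box CACGTG, read alike on both strands, was in 7 of 27, or 25.9%, beside 8.09% and 12.1%. The sterol regulatory element letters TCACNCCAC were in 1 of 27, the promoter of Hmgcs1, or 3.70%, beside 1.44% and 1.36%. Both strands were searched, and in Fasn 2 of the NF-Y matches overlap on opposite strands. Before the start, 39 NF-Y matches were found in 20 of the genes, 12 of which had 2 or more, and 27 of the 39 lay within 100 bases of the start. Positions and numbers of matches were not taken for the promoters of other genes, so these are no trait of the set. A match is a description of the letters and no site of binding, and no match says only that these letters are not in this window.

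**Figure D1:**
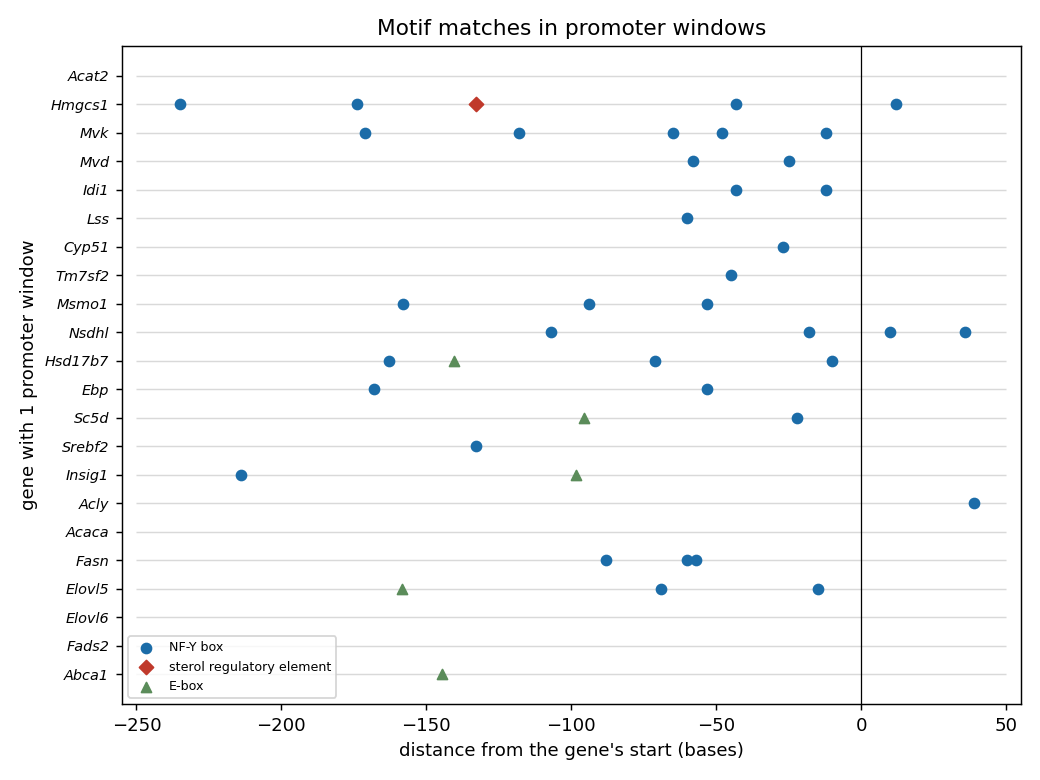
Positions of NF-Y boxes, sterol regulatory elements and E-boxes in the 22 genes with a single promoter window (Msmo1 included), as distance in bases from the gene's start; each symbol is 1 match on either strand. NF-Y boxes lie mostly within 100 bases before the start, and the 1 exact match to the sterol regulatory element letters TCACNCCAC is in Hmgcs1.

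Most genes of both routes were expressed, and the spread of levels within the set was wide. Averaged over libraries, 29 of the 34 reached 10 CPM and 9 reached 100 CPM, with a median of 40.1 CPM. Among all 23131 genes with a count, 39.8% reached 10 CPM and 11.0% reached 100 CPM. Among the 15392 tested for differences between libraries the shares were 59.8% and 16.5%, with a median of 18.5 CPM. Per kilobase of exon, the scale on which genes can be compared, the median of the set was 9.50 CPM per kilobase, beside 6.50 over the 14249 tested genes with a known length. On that scale 23 of 34 genes lay at or above the median of the tested genes and 4 at or above its 90th percentile. Those 4 were Acly, Fasn, Srebf2 and Elovl1. The exonic length of the set had a median of 4703 bases, beside 3662 in the tested genes, and its GC content a median of 50.1%, beside 49.6%. The summed level of the set was 3729, 3682 and 3753 CPM in replicates 1, 2 and 3, of which Fasn, Srebf2 and Acly together made up 53.9%. In a pool of cells, fewer cells expressing a gene and less RNA of it per cell cannot be told apart.

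**Figure D2:**
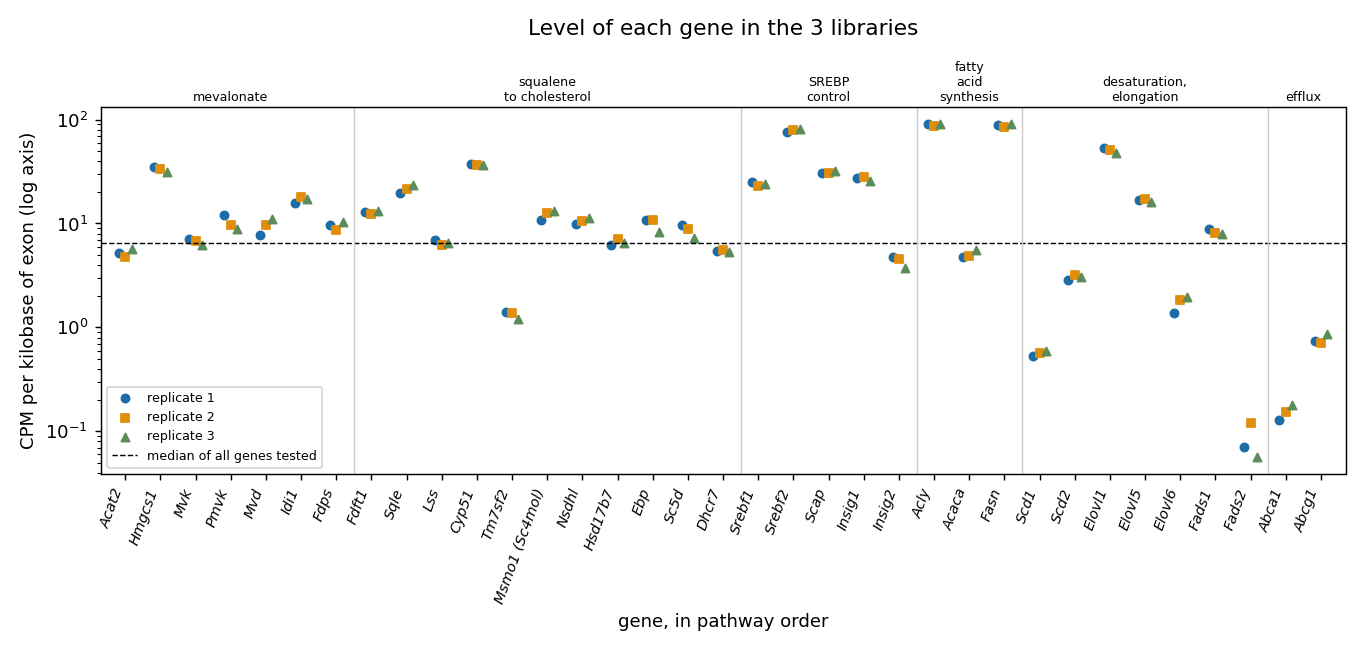
Level of each gene in each library, in CPM per kilobase of exon on a log axis, in pathway order; each symbol is 1 library and the dashed line is the median of all genes tested. Fasn, Acly and Srebf2 lie highest, between 76.4 and 90.6 CPM per kilobase in every library, and Fads2 and Abca1 lowest, at no more than 0.179.

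The mevalonate enzymes were all expressed, from 13.3 CPM for Acat2 to 152 CPM for Hmgcs1, and 6 of 7 lay above the median of the tested genes per kilobase. Hmgcs1, the synthase that commits acetoacetyl-CoA to the pathway (chr13:119690379-119708260, GRCm38), had 159.5, 152 and 144 CPM in replicates 1, 2 and 3, a mean of 33.1 ± 1.70 CPM per kilobase. Idi1, the isomerase that balances the isoprenoid units, had 55.2, 63.7 and 59.7 CPM, or 17.0 ± 1.21 CPM per kilobase. Hmgcs1 was above Idi1, and Idi1 above every other gene of this group, in each of the 3 libraries. Acat2, the cytosolic acetoacetyl-CoA thiolase, was lowest per kilobase, with 13.2, 12.2 and 14.4 CPM and a mean of 5.21 ± 0.427 CPM per kilobase. Mvk and Pmvk, the kinases of the pathway, Mvd, the decarboxylase, and Fdps, the farnesyl diphosphate synthase, lay close together at 6.66 to 10.2 CPM per kilobase.

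The row of Acat2 is uncertain. The transcript of Acat2 matched that of Acat3, a neighbour on chromosome 17, with 97.7% identity over 1477 bases, and Acat3 had 3.49 ± 1.37 CPM. It also matched, in reverse orientation, 445 bases of the transcript of Tcp1, a chaperonin subunit, at 98.7% identity. The row of Tcp1 held 483 ± 35.9 CPM, and no source used here says whether the counting kept the strands apart. Idi1 and Hmgcs1 had near-identical transcripts as well. Idi1 matched the processed pseudogenes Gm13502, at 100% over 684 bases and without a count, and Gm35570, at 97.7% over 681 bases. Hmgcs1 matched the antisense transcript Gm48342 at 100% over 462 bases. Gm35570 and Gm48342 had no row, and their part in the levels of Idi1 and Hmgcs1 was not tested.

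In the steps to cholesterol, 9 of 10 genes reached 10 CPM and 8 lay above the median of the tested genes per kilobase. Cyp51, the lanosterol demethylase (chr5:4081145-4104746), had 164, 159 and 161 CPM, or 36.6 ± 0.556 CPM per kilobase. Sqle, the squalene epoxidase and a rate-limiting step (chr15:59315077-59331192), had 109.6, 120.2 and 129 CPM, or 21.6 ± 1.77 CPM per kilobase. These were the highest of the group in each of the 3 libraries. Tm7sf2, a sterol reductase, was far lower, with 6.21, 6.07 and 5.33 CPM, or 1.33 ± 0.107 CPM per kilobase. The other members, Fdft1 (squalene synthase), Lss (lanosterol synthase), Nsdhl, Hsd17b7, Ebp, Sc5d and Dhcr7 (the demethylation, reduction, isomerisation and desaturation steps that follow), spanned 5.48 to 12.8 CPM per kilobase. With the length of the longest transcript in place of all exons, Lss stood at 10.1 and Dhcr7 at 11.3 CPM per kilobase. Msmo1, counted under Sc4mol, had 66.8, 77.0 and 80.6 CPM, or 12.2 ± 1.16 CPM per kilobase, within the range of those neighbours. Over its longest transcript it stood at 25.2 CPM per kilobase, above all of them on that scale, where the highest was Fdft1 at 14.6. Fdft1 overlaps the lysosomal protease gene Ctsb on the opposite strand over 774 bases, and Ctsb was at 100.3 ± 6.15 CPM, above Fdft1 at 54.1 ± 1.72 CPM. A processed pseudogene of Fdft1, Gm6781, held a further 8.01 ± 0.464 CPM.

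The genes that control the pathway were led by Srebf2, the SREBP gene best known for driving sterol synthesis (chr15:82147181-82205379). Srebf2 had 549, 575 and 577 CPM, or 78.9 ± 2.15 CPM per kilobase. Srebf1, the relative best known for driving fatty acid synthesis (chr11:60199089-60222581), had 139.9, 130.4 and 134 CPM, or 23.9 ± 0.854 CPM per kilobase. Per kilobase Srebf2 was 3.30-fold higher than Srebf1, and the table does not split the isoforms of Srebf1. Scap, the escort of both, was at 228, 226 and 236 CPM, or 30.9 ± 0.713 CPM per kilobase (54.5 over its longest transcript). Insig1, the anchor that is itself a target of SREBP, had 85.4, 87.2 and 78.7 CPM, or 27.1 ± 1.44 CPM per kilobase. Its relative Insig2 had 16.7, 15.8 and 13.1 CPM, or 4.37 ± 0.537 CPM per kilobase. Insig1 was thus 6.22-fold higher than Insig2 per kilobase, and their ranges were far apart. Of 8 further genes of this control step, which include the proteases that cleave SREBP, 8 had at least 10 CPM, and the least abundant was Erlin1 at 19.1 ± 1.06 CPM.

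Fasn, the fatty acid synthase (chr11:120805846-120824547), had the highest CPM of the set, with 974, 935 and 992 CPM. Acly, which makes cytosolic acetyl-CoA from citrate for both routes (chr11:100476353-100528000), had 477, 462 and 477 CPM. Per kilobase the genes did not separate, with 88.3 ± 2.64 CPM per kilobase for Fasn and 89.4 ± 1.63 for Acly. Acaca, the carboxylase between them that makes malonyl-CoA (chr11:84129672-84401651), had 80.8, 83.9 and 94.9 CPM, or 5.07 ± 0.433 CPM per kilobase (9.10 over its longest transcript).

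The level of Acaca depends on how reads were shared with a pseudogene. Its transcript matched the processed pseudogene Gm5182, on chromosome 12, with 99.2% identity over 6118 aligned bases. The row of Gm5182 had 109.1, 106.4 and 110.3 CPM in replicates 1, 2 and 3, more than the row of Acaca in each library. Summed, the rows came to 195 ± 8.67 CPM, 2.25-fold the row of Acaca alone, or 11.4 CPM per kilobase of Acaca exon. Even the sum stayed below Fasn and Acly per kilobase. How many reads of the pseudogene row came from Acaca was not tested.

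**Figure D3:**
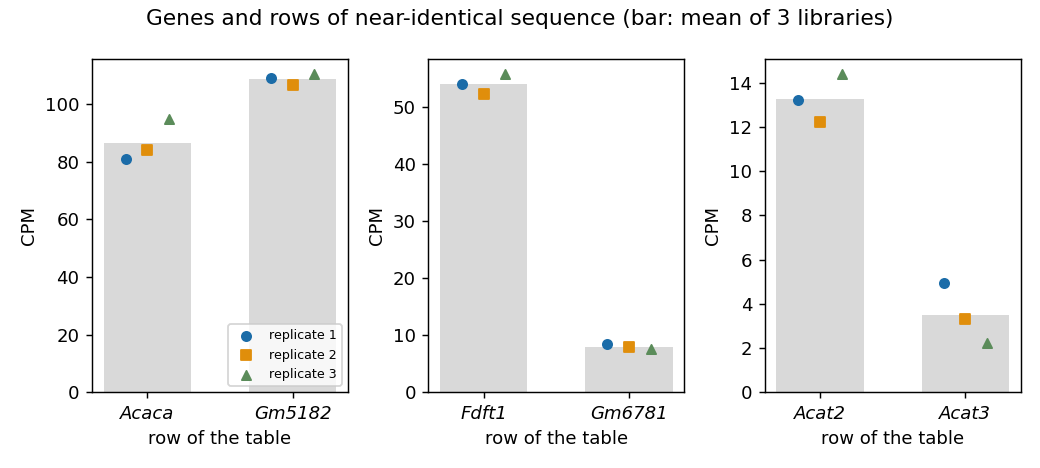
CPM of Acaca, Fdft1 and Acat2 (left bar of each panel) and of the row with near-identical sequence (right bar); bars are means of 3 libraries and symbols are single libraries, on linear axes that start at 0. Gm5182 exceeds Acaca in each library, while Gm6781 and Acat3 stay below Fdft1 and Acat2.

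Desaturation and elongation genes differed most among themselves. Elovl1, the elongase of very long saturated chains, had 146, 138 and 129 CPM, or 50.5 ± 3.03 CPM per kilobase (76.1 over its longest transcript). Elovl5, which elongates polyunsaturated chains, had 59.2, 61.1 and 56.9 CPM, or 16.8 ± 0.599 CPM per kilobase. Elovl6, which elongates the palmitate that Fasn releases, was much lower, with 8.80, 11.9 and 12.6 CPM, or 1.73 ± 0.318 CPM per kilobase. Per kilobase, Elovl1 was 29.4-fold and Elovl5 9.78-fold higher than Elovl6.

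Of the desaturases of saturated fatty acids, both lay below the median of the tested genes per kilobase. Scd2 had 15.6, 17.3 and 16.5 CPM, or 3.02 ± 0.157 CPM per kilobase, and Scd1, the form best known from liver and fat, had 2.59, 2.77 and 2.91 CPM, or 0.564 ± 0.0327 CPM per kilobase. Scd2 was 5.30-fold higher than Scd1 per kilobase. The genes lie on chromosome 19 with 87.6 kilobases between them (Scd2 at chr19:44293674-44306864 and Scd1 at chr19:44394455-44407879), and their transcripts share 88.0% identity over 1195 aligned bases. Fads1, a desaturase of polyunsaturated chains (chr19:10182888-10196877), had 42.5, 39.4 and 37.8 CPM, or 8.29 ± 0.493 CPM per kilobase. Its partner Fads2 (chr19:10062765-10101746), which carries out the desaturation step before it, had only 3, 6 and 3 counts, at or near the detection floor of 3 counts. The exact Poisson 95% intervals of those counts were 0.619 to 8.77, 2.20 to 13.1 and 0.619 to 8.77. Fads1 exceeded Fads2 per kilobase by 99.8-fold over the summed counts of the 3 libraries (exact 95% interval 57.0 to 194, counting error only).

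The sterol exporters were at low levels, and neither reached 10 CPM. Abcg1 (chr17:31057675-31117988) had 5.42, 5.14 and 6.26 CPM, or 0.768 ± 0.0794 CPM per kilobase. Abca1 (chr4:53030787-53159895) had 1.34, 1.58 and 1.86 CPM from 17, 24 and 30 counts, or 0.154 ± 0.0252 CPM per kilobase. Abcg1 was 4.95-fold above Abca1 per kilobase. Macrophages are known to express both strongly: the summed macrophage and monocyte markers were at 13.4, 16.6 and 16.7 CPM in replicates 1, 2 and 3, 9.20 ± 1.44 CPM of it from Mpeg1, and their part in the level of the exporters was not tested. Among the LXR receptor genes, named after their values were seen, Nr1h2 was at 170 ± 3.13 CPM and Nr1h3 at 0.695 ± 0.128 CPM. In the list of 12 genes of sterol storage, transport and the LXR axis, 9 had at least 10 CPM, from Vldlr at 0.138 ± 0.0173 CPM to Npc2, a lysosomal sterol carrier, at 269 ± 45.9 CPM.

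For 7 pairs of related genes the ratio per kilobase was taken within each library. The log2 ratio was 1.72 ± 0.09 for Srebf2 over Srebf1, 2.64 ± 0.12 for Insig1 over Insig2 and 2.41 ± 0.07 for Scd2 over Scd1. It was 3.29 ± 0.30 for Elovl5 over Elovl6, 4.88 ± 0.36 for Elovl1 over Elovl6, 2.31 ± 0.17 for Abcg1 over Abca1 and -6.54 ± 0.49 for Fads2 over Fads1. Each ratio had the same sign in 3 of 3 libraries and exceeded its SD. In a two-sided exact sign-flip test each had p = 0.25, also after Benjamini-Hochberg adjustment over the 7 pairs, which is the smallest p that 3 libraries allow.

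**Figure D4:**
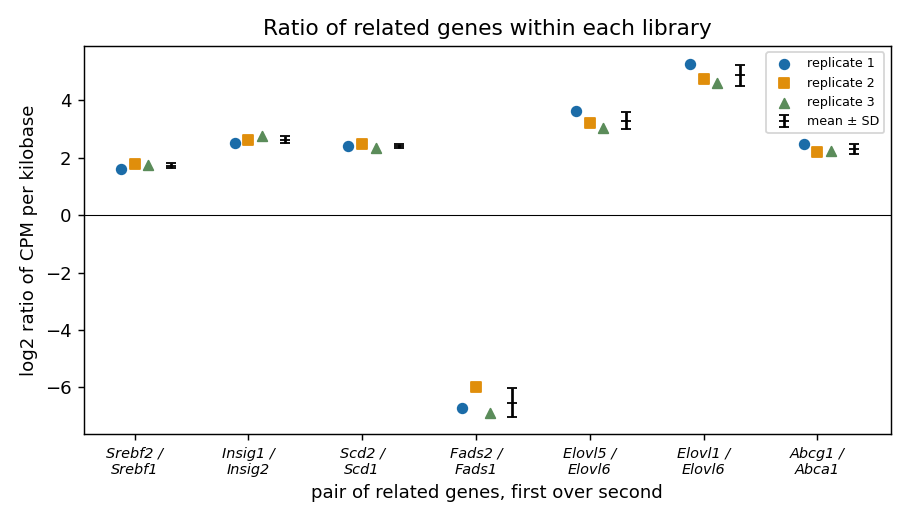
Log2 ratio of CPM per kilobase within each library for 7 pairs of related genes, first over second; symbols are single libraries and the bar at the right of each pair is the mean ± SD. All pairs but Fads2 over Fads1, which lies between -6.90 and -5.98, are above 0 in every library.

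No gene tested in the set differed by 1.5-fold between libraries. To ask whether libraries differ by more than counting noise, each gene's 3 counts were set against the scaled library sizes in a chi-square test, with Benjamini-Hochberg adjusted p-values over all 15392 genes tested. It called 13 of the 33 genes that had enough counts, or 39.4%, beside 42.8% of all genes tested, and Fads2 was not tested. The share of the set is near that background and is no result about these genes. All 13 were among the 29 genes of at least 10 CPM, where the background was 58.5%, and 5 among the 9 of at least 100 CPM, where it was 78.5%. None of the 33 was called with 1.5-fold or more between its highest and lowest library, beside 13.8% of all genes tested. Among all 6589 genes called, 2130 reached that fold. At an unadjusted p under 0.05 the test reached 16 of the 33, again with none at that fold. The share of all genes at that unadjusted p was not taken, so the 16 are no result about these genes. The called differences spanned 1.05-fold for Srebf2 to 1.44-fold for Elovl6. The median coefficient of variation was 5.99% over the 29 genes, beside 8.67% over all 9204 genes of at least 10 CPM. Without replicate 3 these medians were 3.89% and 6.39%. The genes behind these medians were matched only by the limit of 10 CPM, and those behind the 13.8% were not matched in level. Neither background was matched in exon length, so they do not show that the set is steadier than genes like it.

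The called genes differed in which library was highest. Replicate 1 was highest for 5 of the 13, replicate 2 for 1 and replicate 3 for 7, beside 41.9%, 13.4% and 44.7% of the 6589 genes called in all. Replicate 1 was lowest for 6 of the 13, beside 44.8% of the 6589. By role, 5 of 7 mevalonate genes, 3 of 10 genes of the sterol steps, 1 of 5 control genes, 2 of 3 genes of fatty acid synthesis, 2 of 6 tested desaturation and elongation genes and neither exporter were called, beside 42.8% of all genes tested and 58.5% of those of at least 10 CPM. Mvd had 14.3, 17.9 and 20.4 CPM (adjusted p = 0.00213, chi-square test), lowest in replicate 1, while Pmvk, which acts just before it, had 20.7, 16.6 and 15.1 CPM (adjusted p = 0.00332), highest in replicate 1. Sc5d and Ebp had their lowest level in replicate 3, with 47.0, 43.3 and 35.5 CPM for Sc5d (adjusted p = 2.64e-05) and 24.98, 24.8 and 19.3 CPM for Ebp (adjusted p = 0.00292). Sqle was lowest in replicate 1 (adjusted p = 5.89e-05), as was Elovl6 (adjusted p = 0.0172). The row of Sc4mol was also lowest in replicate 1 (adjusted p = 0.000375). Cyp51, at the other end, varied by 1.52% between libraries and was not called (adjusted p = 0.695).

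**Figure D5:**
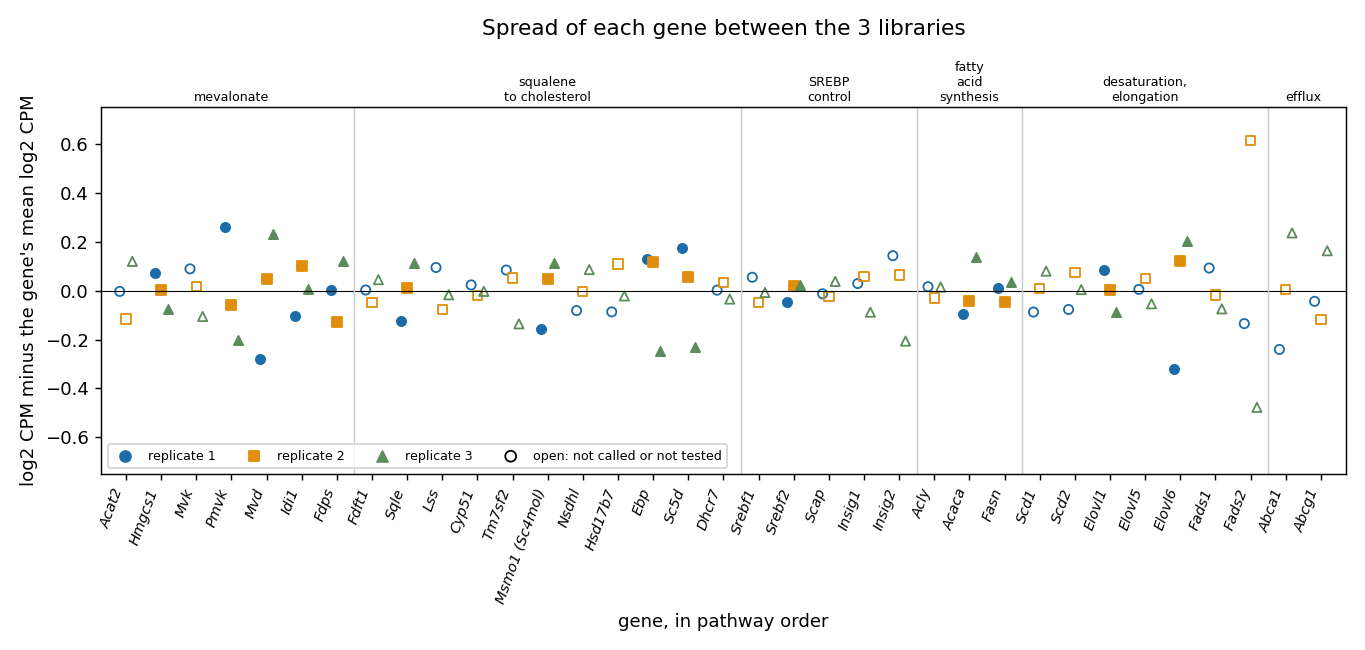
Log2 CPM of each gene in each library minus that gene's mean log2 CPM, in pathway order; filled symbols mark genes called by the chi-square test, open symbols those not called or, for Fads2, not tested. Mvd and Elovl6 are lowest in replicate 1 and Pmvk is highest there, while Fasn, Acly and Cyp51 stay close to 0.

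Between replicates 1 and 3, the libraries furthest apart in 18S share, 17 of the 33 tested genes had a log2 ratio below 0. The median log2 ratio of replicate 1 to replicate 3 was -0.03 over the 33 and -0.02 over all genes tested, and with no scaling factor -0.12 and -0.11. A trend of this ratio with exon length and GC content was fitted over 10281 genes of at least 5 CPM. How closely the ratio follows the trend was not measured. For Mvd and Pmvk, both short and GC-rich with 59.0% and 57.0% GC, the fitted trend came to 0.21 each. Against it Mvd had a ratio of -0.51 and Pmvk of 0.46, so that with the trend removed they stood at -0.72 and 0.25. The part of the 18S share in these differences was not tested. Without replicate 1 the chi-square test called 6 genes, 5 of them among the 13 and Insig1 in addition, beside 24.4% of all genes tested. Without replicate 3 it called 6, 5 of them among the 13 and Lss in addition, beside 22.8%. Without replicate 2 it called 11, 10 of them among the 13 and Insig2 in addition, beside 41.7%.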

How the data were processed

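Raw counts came from 1 table that the authors deposited, with gene symbols as rows and the 3 libraries as columns. Reads were from an Ion Proton RNA-Seq kit, per the labels' protocols, and the submitters' processing notes name mm10. Aligner, counter, annotation and strand setting: not given in the sources used here.

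Counts were scaled with TMM factors of edgeR 4.0.16 (R 4.3.3), which were 0.962, 1.01 and 1.03, and given as CPM. A floor of 3 counts came to 0.236, 0.198 and 0.186 CPM in replicates 1, 2 and 3, and such floors, like the intervals, hold counting error alone. Levels per kilobase used the union of exons of GENCODE M21 (GRCm38), matched for 92.6% of the genes tested, with older symbols resolved through RefSeq. The chi-square test was run where all 3 expected counts reached 5, called genes at an adjusted p of 0.05, and was tested on simulated data. Ratios used a pseudocount of 0.5 counts. Near-identical transcripts were found with blastn 2.17.0 at 95% identity over 200 bases or more. The length and GC trend was a robust spline fit with 6 degrees of freedom to genes of at least 5 CPM.

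The genes and lists were chosen with earlier results of these data known. Values in every library are given for the 2 highest and the lowest gene of each role per kilobase, for paired relatives and for genes with 1.5-fold differences between libraries. Of the other lists, the most and the least abundant are named, except for 1 gene that is not reported here. The remaining genes named, and the promoters printed other than that of Hmgcs1, were chosen after their values were seen. Alternatives were DESeq2 1.42.0 size factors, no scaling factor, other count minimums and thresholds, another length, no pseudocount, and each library left out.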

Additional observations from a re-analysis of the deposited data

How the results depend on the processing

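No paired analysis was possible because all libraries belong to 1 group. The counts of 29 and 9 genes at 10 and 100 CPM were the same under both other scalings and with any 1 library left out, and the 7 ratios kept their sign with another length, no pseudocount or any 1 library left out. In place of 13 genes, 6 to 11 were called between libraries without 1 library (of them 5 to 10 among the 13), and 10 at an adjusted p of 0.01. Of all genes 3555 to 6403 were called without 1 library, or 22.8% to 41.7% of those tested. At an adjusted p of 0.01, 5168 of all 15392 genes tested were called. The median coefficient of variation of the set, with 1 library left out, ranged from 3.89% to 5.99%, and of all genes from 6.11% to 10.3%. Both were taken over genes of at least 10 CPM, with no further matching in level or length. The median CPM of the genes tested was 17.5 to 18.6 without 1 library, 18.01 with no scaling factor and 2.89 with no filter. With the length of the longest transcript, the median of the set was 12.4 CPM per kilobase, and 5 genes (Lss, Dhcr7, Scap, Acaca and Elovl1) moved by over 1.5 times, as did Msmo1. The median log2 ratio of replicate 1 to replicate 3 over the set was -0.0193 with DESeq2 size factors and -0.12 with no scaling factor. With the length and GC trend removed it was 0.0518, over the 31 genes of the set in the fit. Over all genes tested this median was -0.0102 with DESeq2 size factors and -0.11 with no scaling factor. With the trend removed it was -0.00851 over the 10281 genes in the fit. After seeing the data, the shorter motif CACNCCAC was tried and was in 3 promoters (Acat2, Hmgcs1 and Insig1), or 11.1%, beside 7.12% of all genes with a window, and counting Msmo1 through Sc4mol gave 30 genes at 10 CPM and 14 called. Depth limits Fads2 and Abca1.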

Other observations

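Further lists show the surroundings of both routes. Of 10 genes of the isoprenoid branch and neighbouring steps, 8 had at least 10 CPM and 4 were called between libraries by the chi-square test, beside 42.8% of all genes tested. They ran from Fdx1 at 3.49 ± 0.464 CPM to Nus1, a subunit of the enzyme that makes dolichol chains, at 100.5 ± 15.2 CPM. Ggps1, which makes the diphosphate used for protein prenylation and was named after its values were seen, had 18.1, 24.9 and 35.5 CPM in replicates 1, 2 and 3 (adjusted p = 9.5e-18, chi-square test), a wider spread than any gene called among the 34.

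Of 23 further genes of fatty acid synthesis and activation, 10 had at least 10 CPM and 9 were below 1 CPM. The most abundant was Acsl5, an acyl-CoA synthetase, at 181 ± 12.1 CPM, and Hacd4, counted under its older symbol Ptplad2, had no count in any library. The enzymes of the later steps of elongation, named after their values were seen, spanned a wide range per kilobase of exon. Hacd3, counted as Ptplad1, was at 44.2 ± 5.70 CPM per kilobase, and the reductases Hsd17b12 and Tecr at 41.2 ± 1.90 and 39.8 ± 2.38. Hacd2, counted as Ptplb, was at 4.56 ± 0.369 and Hacd1, counted as Ptpla, at 0.578 ± 0.145. The elongases of the set spanned a wide range too, with Elovl1 at 50.5 ± 3.03, Elovl5 at 16.8 ± 0.599 and Elovl6 at 1.73 ± 0.318. Of 12 genes of fatty acid oxidation, the opposite route, 8 had at least 10 CPM, from Decr1 at 7.56 ± 0.356 CPM to Hadha at 135 ± 1.91 CPM. The median of that list was 5.25 CPM per kilobase, beside 6.50 for all genes tested and 9.50 for the 34 genes, which include sterol, control and exporter genes. On the fatty acid side alone the medians lay on both sides of 5.25. They were 88.3 for the 3 genes of fatty acid synthesis, 3.02 for the 7 of desaturation and elongation and 0.578 for the 23 further genes.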
